A study of Mus musculus with 4 samples.

Results

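The cytosolic small ribosomal subunit is built from an 18S rRNA and a set of proteins, most of them named Rps in the mouse. The genes of these proteins were taken by symbol from the deposited table of translation efficiency (TE), as protein-coding genes named Rps and a number or Rpsa, together with Fau and Rack1. The Rps6 kinases and Rps19bp1 were left out. The genes described here number 31 of the 30694 in the table, of which 16948 were protein-coding. A companion table of open reading frames (ORFs) with footprints held 15 ORFs from 14 of these genes, among 4669 in all.

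The cells were mouse female germline stem cells (FGSCs), a cultured line derived from the ovary. They were infected with lentivirus carrying a control hairpin (shNC) or a hairpin against the long noncoding RNA Gm26917 (shGm26917) and kept under drug selection, and each group had 2 Ribo-seq libraries. The study describes several hairpin constructs against Gm26917, and which of them gave these libraries is not stated in the sources used here. Both groups were treated with cycloheximide before lysis, and nothing in the labels says whether replicates were separate cultures, so p-values measure only the spread between these libraries. Ribo-seq sequences the mRNA fragments that ribosomes protect, called footprints, and TE is the footprint value of a gene divided by its RNA-seq value. Because TE is a ratio, it says nothing by itself about how much mRNA or how much footprint a gene had, and in bulk libraries fewer cells of a type and less RNA per cell cannot be told apart.

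The small subunit holds the mRNA during initiation and decoding. Its head carries the beak and the tRNA contacts, its body forms the mRNA entry channel, and its platform lies near the mRNA exit. In mammals the mRNAs of ribosomal proteins belong to the terminal oligopyrimidine (TOP) class, which starts with a C followed by an unbroken pyrimidine run. Binding of Larp1 to this start lets mTOR signalling switch the whole class between resting and translated states. Most ribosomal protein genes also left many processed pseudogenes in the genome, which are near copies of the mRNA.

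The library called shGm26917 replicate 1 here stood apart from the others. It listed 372 of the 4669 ORFs above 0, against 4211 and 3421 in the shNC libraries and 4250 in shGm26917 replicate 2. ORF reads came to 157914 in that library and to between 1049143 and 1753036 in the other 3. Over all 10115 genes with a TE above 0 in every library, log2 TE correlated at 0.772 to 0.783 between that library and the others and at 0.921 to 0.935 among the others. TE of the targeted RNA, Gm26917, was 17.0 and 23.8 in shNC against 113.5 and 8.62 in shGm26917, a ratio that does not measure its level. Of marker genes for 6 cell types that an ovary culture could hold, the ORF table listed 1 of 6 germ cell markers (Ifitm3), 4 of 4 fibroblast markers and 2 of 4 macrophage markers. None of the granulosa, theca or endothelial markers had an ORF, and neither did the defining germ cell genes Ddx4 and Dazl. No ORF was listed for 17 of the 31 small subunit genes either, so a missing ORF does not show that a gene was silent. The paper reports Ddx4 and Oct4 in its FGSCs by RT-PCR and immunofluorescence. Summed size-adjusted values were 676.5 to 3986 for the fibroblast list, 0 to 1111 for the germ cell list and 0 to 1436 for the macrophage list, with the lowest sum of each in shGm26917 replicate 1. Their part in the results was not tested.

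The annotated starts of 27 of the 31 genes were found in the RefSeq promoter table of build GRCm38.p6. A C at the start followed by at least 4 more C or T bases, read on the strand of the gene, stood at a start of 9 genes: Fau, Rack1, Rps6, Rps10, Rps15a, Rps18, Rps21, Rps27 and Rps27rt. Those were 9 of the 32 start windows of these genes, against 2.51% of 32851 windows in the table. The windows below run from 15 bases before the start to 15 bases from it on, and capitals mark the pyrimidine run where it was found. Fau, Rack1, Rps6 and Rps10 are shown as members with the run and Rpsa, Rps23 and Rps4x, the lowest in TE, as members without it.
Fau, chr19:6057932-6057961, plus strand: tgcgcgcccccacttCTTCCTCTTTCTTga
Rack1, chr11:48800345-48800374, plus strand: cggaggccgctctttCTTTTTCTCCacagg
Rps6, chr4:86857353-86857382, minus strand: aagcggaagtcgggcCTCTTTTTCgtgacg
Rps10, chr17:27635230-27635259, minus strand: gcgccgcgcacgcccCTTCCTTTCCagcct
Rpsa, chr9:120127751-120127780, plus strand: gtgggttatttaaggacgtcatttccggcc
Rps23, chr13:90923107-90923136, plus strand: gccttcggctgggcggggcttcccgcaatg
Rps4x, chrX:102189377-102189406, minus strand: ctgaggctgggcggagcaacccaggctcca
The pyrimidine run was 13 bases long in Fau, 10 in Rack1 and in Rps10 and 9 in Rps6. An annotated start may lie a few bases from the one used in these cells, so a missing run says only that those letters were not at that position. Among genes with a TE in all libraries, the 6 with the run had a median TE of 0.314 (0.0199 to 0.907) and the 17 without it 0.0903 (0.00396 to 2.004).

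Rps27rt is a near copy of Rps27 on chromosome 9 and was the member listed at 0 in all 4 libraries. Its start is shown beside that of Rps27 because the 2 genes share an unbroken run of 38 bases there, from the base after the start of Rps27. Capitals mark the first 28 of the shared bases.
Rps27, chr3:90213620-90213649, minus strand: tcCTTTCCGGCGGTGACGACCTCCCTACGA
Rps27rt, chr9:114982712-114982741, minus strand: tgCTTTCCGGCGGTGACGACCTCCCTACGA
The longest run that the start of Rps27 shared with a start of its paralogue Rps27l was 10 bases. Reads from the shared stretch of Rps27 and Rps27rt cannot be assigned by sequence, and how such reads were counted is not stated in the sources used here.

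Low TE was the common state of the small subunit genes in both groups. Among protein-coding genes with a TE above 0 in a library, the 25th percentile lay between 0.499 and 0.522 and the median between 0.963 and 1.00. In shNC, 23 and 24 of 30 members lay below the 25th percentile, and in shGm26917, 22 of 27 and 21 of 30 did. Members below the 10th percentile numbered 20 to 21 per library. The median member had a TE of 0.0835 and 0.0779 in shNC against 0.0951 and 0.119 in shGm26917.

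Rpsa, Rps23 and Rps4x stood at the bottom of the protein-coding genes with a TE above 0 in every library, and genes listed at 0 were not ranked. Their annotated ORFs held few reads, at most 14 in any library. Rpsa, the laminin receptor homologue on the back of the platform, had a TE of 0.00605 and 0.00115 in shNC against 0.00831 and 0.00426 in shGm26917. Its geometric mean, 0.00396, was the lowest of the 9672 protein-coding genes with a TE in every library. Rps23, a protein of the decoding centre, stood at 0.00503 and 0.00336 in shNC against 0.0153 and 0.00232 in shGm26917. Rps4x, the X-linked protein of the body, read 0.00444 and 0.00626 in shNC against 0.00686 and 0.00328 in shGm26917. They ranked 3 and 4 from the bottom, and in all 3 genes the values of the 2 groups overlapped. Of the 20 ranked genes with the lowest mean TE, 5 were small subunit genes described here (these 3 with Rps13 and Rps27a) and 6 were large subunit genes. Of the lowest 100, which reached up to a TE of 0.0709, 11 were small subunit genes described here and 24 were large subunit genes.

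A small set of members had a TE near or above that of the typical gene. Rps27l, the p53-responsive paralogue of Rps27, was highest, and it read 2.14 and 2.12 in shNC against 1.51 and 2.35 in shGm26917. Rps25, a head protein needed by several viral internal ribosome entry sites, read 1.47 and 1.996 against 1.11 and 2.15. Both genes kept an upper position in all libraries, with the shNC values inside the shGm26917 range. Rps3, at the mRNA entry channel, read 1.06 and 1.17 in shNC against 1.00 and 1.64 in shGm26917. Its annotated ORF had 11 and 4 reads in shNC against 44 and 2 in shGm26917. The library with its lowest TE, shGm26917 replicate 1, thus had the most ORF reads, and the library with its highest TE had the fewest. Why TE and ORF reads ran in opposite directions for Rps3 was not tested. Rack1, a propeller-shaped scaffold on the head, read 0.933 and 0.765 against 0.859 and 1.10, below the protein-coding median in 3 of the 4 libraries. In all, 4 members were above a TE of 0.7 in every library, 8 of the 27 with a TE in every library were below 0.1 in all of them, and the mean TE of the highest was 506 times that of the lowest.

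**Figure D1:**
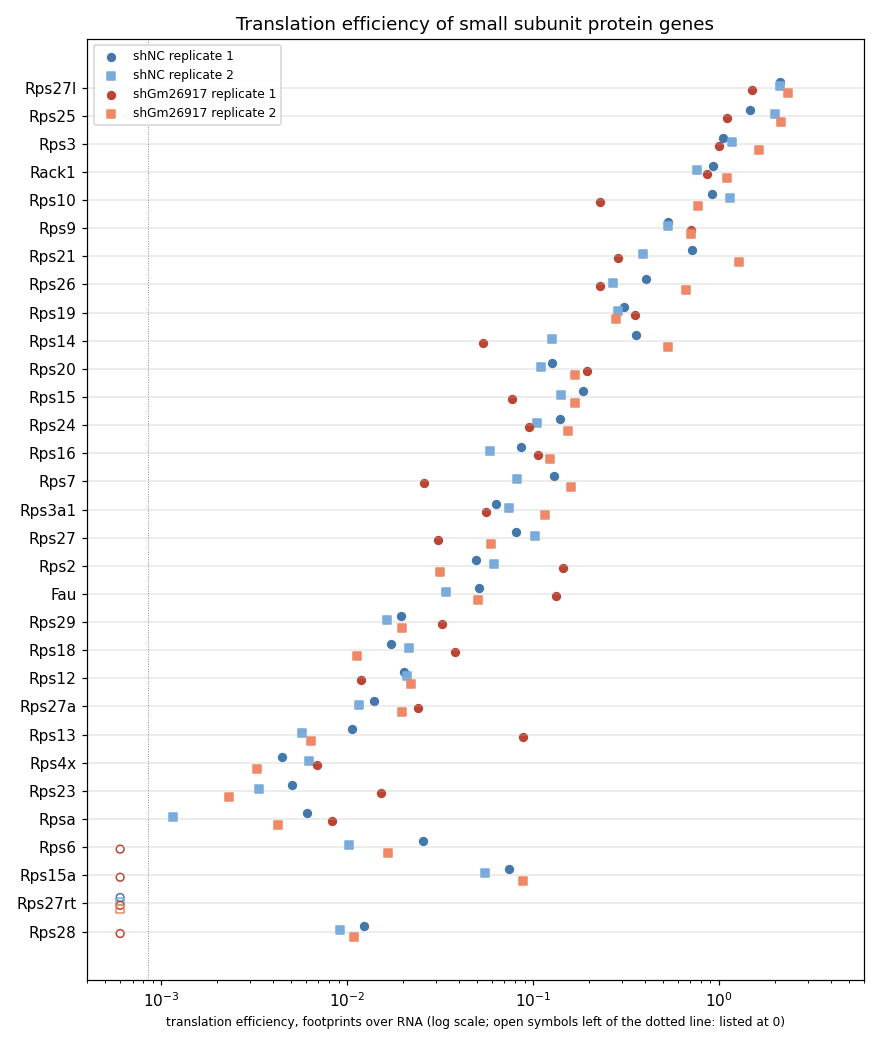
Translation efficiency (footprints over RNA, log axis) of the 31 small subunit genes in each of the 4 libraries, ordered by geometric mean, with open symbols left of the dotted line for values listed at 0. The genes run from Rps27l (2.004) down to Rpsa (0.00396), and the dark red circles of shGm26917 replicate 1 lie farthest from the other libraries in genes such as Rps13 and Rps10.

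The order of the genes was shared between libraries. Across the 27 members measured in all 4, log2 TE correlated at 0.976 between the shNC replicates and at 0.99 between shNC replicate 1 and shGm26917 replicate 2. With shGm26917 replicate 1 it correlated at 0.851 to 0.875. These are descriptions over genes, which are not independent replicates. At the bottom of the order, Rps4x, Rps23 and Rpsa changed places between libraries.

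The paralogues Rps27 and Rps27l sat far apart. Both encode the zinc-finger protein eS27 of the platform, and they share much of their protein sequence. Rps27 had a TE of 0.0805 and 0.103 in shNC against 0.0309 and 0.0592 in shGm26917. Rps27l was 26.6 and 20.7 times higher than Rps27 in the shNC libraries and 48.8 and 39.7 times in the shGm26917 libraries. The ranges of the paralogues did not touch in any library. The other paralogue considered, Rps4l, is annotated as a transcribed pseudogene in the table and had no ratio in any library.

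Head genes and genes of the body and platform overlapped widely in level. The 12 measured head genes had a median TE of 0.141 (0.0166 to 1.62), and the 15 of the body and platform had 0.0741 (0.00396 to 2.004). Of the head genes, Rps20, a protein that is ubiquitinated when ribosomes collide, read 0.127 and 0.111 in shNC against 0.195 and 0.169 in shGm26917. Rps19, mutated in human Diamond-Blackfan anaemia, read 0.310 and 0.287 in shNC against 0.356 and 0.280 in shGm26917. Of the platform genes, Rps14 read 0.360 and 0.127 in shNC against 0.0541 and 0.530 in shGm26917, so that the lowest and the highest of its values were both from shGm26917. Rps26, next to the mRNA exit, read 0.407 and 0.270 against 0.230 and 0.661.

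The large subunit genes were similarly low, other TOP mRNAs were partly so, and assembly factors and mitochondrial small subunit genes were not. Geometric mean TE had a median of 0.0903 over 27 small subunit genes, 0.0686 over 45 large subunit genes and 0.973 over all protein-coding genes. For 25 other TOP mRNAs, mostly translation factors, it was 0.759. Of those, 10 or 11 lay below the 25th percentile in each library and 8 or 9 below the 10th, with Tpt1 lowest at a geometric mean of 0.0492 and the elongation factor Eef1a1 at 0.0923. Factors that assemble the small subunit in the nucleolus (55 genes) had a median of 1.71, and proteins of the mitochondrial small subunit (24 genes) 1.85. The range of the small subunit genes overlapped that of each other group, and no test of these levels was made because genes are not replicates.

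**Figure D2:**
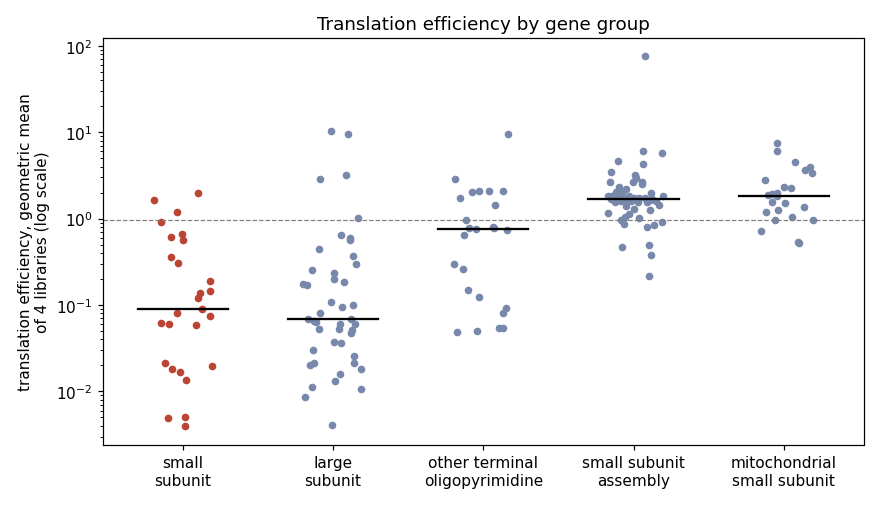
Geometric mean translation efficiency over the 4 libraries (log axis) of small subunit genes and 4 comparison groups, 1 point per gene, with black bars for the group medians and the dashed line for the median of all protein-coding genes (0.973). Most small and large subunit genes lie under the dashed line (medians 0.0903 and 0.0686), while assembly factors and mitochondrial small subunit genes centre at 1.71 and 1.85.

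Genes with named pseudogenes had the lower median TE. The RefSeq table listed 109 pseudogenes under the symbols of 21 members, from 1 for Rps4x or Rps25 to 23 for Rps12. The 19 measured members with at least 1 had a median TE of 0.0608 (0.00396 to 1.62), and the 8 with none had 0.591 (0.0741 to 2.004). Across the 27 genes Spearman's rho between the number of named pseudogenes and mean TE was -0.56, a description over genes that share libraries. Among genes with none under their own symbol, some were low: Rps28, which is outside these medians because 1 library listed it at 0, was at or under 0.0124 in every library, Rps27rt was at 0 throughout, and Rps3a1 read 0.0635 and 0.0739 in shNC against 0.0556 and 0.116 in shGm26917. Pseudogenes under other symbols, such as Rps3a2 and Rps3a3, were not counted, and how reads matching both gene and copy were assigned was not tested.

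No small subunit gene passed the test of a TE difference between shGm26917 and shNC (limma, Benjamini-Hochberg adjusted). The background was the same: of 10115 genes tested, 0% were called, and 219 had an unadjusted p under 0.05, fewer than the 505.75 that 5% of the tests would be. Adjusted p over the 27 tested members ran from 0.965 to 0.999. The study's own threshold asks for a 1.5-fold difference and an unadjusted p no higher than 0.05. With the limma p used here, 0 members passed it, against 2.17% of all genes. The study reports genes with raised and with lowered TE from its own differential TE analysis, whose p-values were not used here. Members below that unadjusted p likewise numbered 0.

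The member changes centred slightly above 0. The median log2 change, shGm26917 over shNC, was 0.21 over the members, with 18 positive and 9 negative values, and -0.0065 over all protein-coding genes. It was 0.26 over large subunit genes, 0.075 over mitochondrial small subunit genes, -0.0086 over assembly factors and -0.022 over the other TOP mRNAs. With each library left out in turn the member median lay between 0.024 (without shGm26917 replicate 2) and 0.33, with 0.066 without shNC replicate 2 and 0.21 without shNC replicate 1. Only 7 members kept a positive sign in each of those fits and 2 a negative one, while 18 changed sign.

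Members whose shGm26917 values were both above both shNC values were Rps9, Rps16, Rps20, Rps27a and Rps29. They were 5 of 27, or 18.5%, against 16.1% of all tested genes. Members with both values below were Rps10 and Rps27, or 7.41%, against 14.8%. Of the 5 higher genes, 4 belong to the head (of 12 tested) and 1 to the body and platform (of 15), and of the 2 lower genes 1 belongs to each. These counts are given as a description.

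Among the 5, Rps9, a body protein of the entry channel that bears on decoding accuracy, read 0.534 and 0.533 in shNC against 0.712 and 0.711 in shGm26917. This was a log2 change of 0.41 ± 0.31 (SE, 2 libraries a group, adjusted p = 0.965 by limma). The ratio of its replicates was 0.999 in shNC and 0.998 in shGm26917, the closest pairs among the tested members.

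Rps16, whose tail reaches the tRNA in the P site, read 0.0865 and 0.0589 in shNC against 0.106 and 0.123 in shGm26917. Rps29, a zinc-finger protein of the head, read 0.0195 and 0.0164 against 0.0325 and 0.0198, so the groups were separated by less than the spread between replicates. Rps27a, made as a fusion with ubiquitin, read 0.0139 and 0.0115 against 0.0239 and 0.0197. The log2 changes of Rps16, Rps29 and Rps27a were 0.68 ± 0.51, 0.51 ± 0.75 and 0.78 ± 0.78 (SE). None passed the test, and Rps20, with 0.62 ± 0.42, did not either.

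Rps10 and Rps27 had the lowest log2 changes. Rps10, on the beak and ubiquitinated when ribosomes stall, read 0.923 and 1.15 in shNC against 0.231 and 0.772 in shGm26917, or -1.29 ± 0.66 as a log2 change (SE, limma adjusted p = 0.965). Without shGm26917 replicate 2 it became -2.16 with an adjusted p of 0.0442, and without the other libraries it came down to as little as -0.42. That fit called 583 of the 10115 genes and rested on shGm26917 replicate 1 alone in its group. Rps27, with the values given above, had -1.09 ± 0.61, and it stayed between -1.56 and -0.62 with a library left out.

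Of the largest positive changes, those of Rps13 and Rpsa turned sign without 1 library. Rps13, a protein of the central body, read 0.0106 and 0.00568 in shNC against 0.0886 and 0.00636 in shGm26917, a log2 change of 1.61 ± 1.51 that became -0.29 without shGm26917 replicate 1. In shGm26917 replicate 2, Rps13 lay between the shNC values. Fau, made as a fusion with a ubiquitin-like protein, read 0.0509 and 0.0342 against 0.133 and 0.0506, with a log2 change of 0.97 ± 0.72 that fell as low as 0.28 with a library left out. Rpsa, with values given above, had 1.18 ± 1.49, and it came to -0.02 without shNC replicate 2.

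Rps7, Rps15 and Rps12 were also among the lowest changes. Rps7, a body protein, read 0.129 and 0.0819 in shNC against 0.0260 and 0.160 in shGm26917, a log2 change of -0.67 ± 1.00. Rps15, whose tail reaches toward the decoding centre, read 0.186 and 0.142 against 0.0769 and 0.169, with -0.51 ± 0.57. Rps12, a beak protein known in Drosophila for its part in cell competition, read 0.0202 and 0.0210 against 0.0118 and 0.0221, with -0.35 ± 0.80. In each of these the low value was shGm26917 replicate 1, the other shGm26917 library lay within or above the shNC values, and the sign turned without replicate 1.

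**Figure D3:**
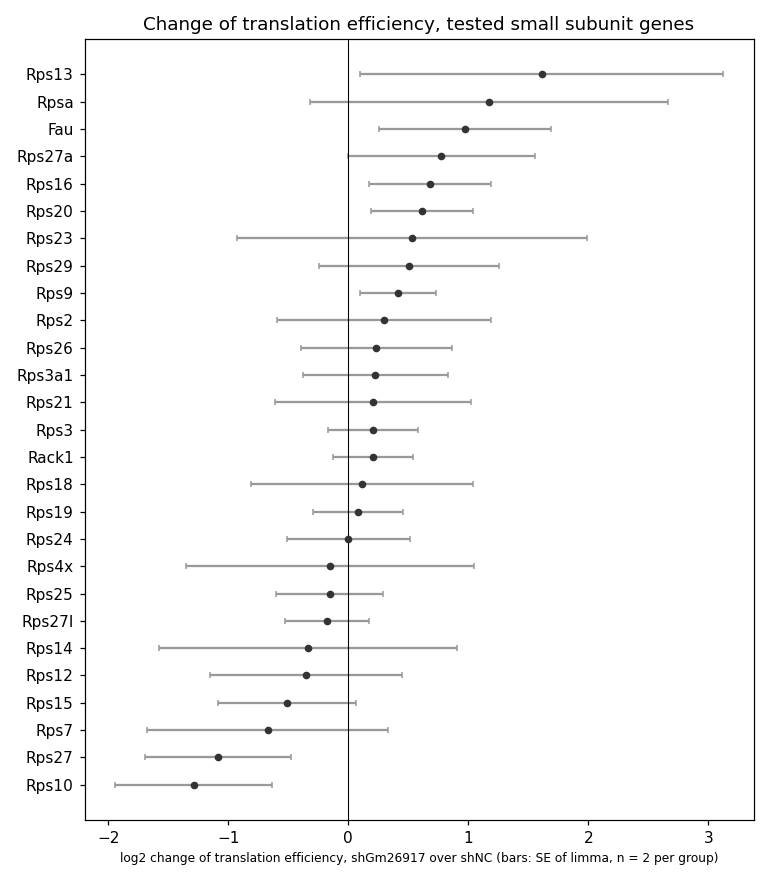
Log2 change of translation efficiency (shGm26917 over shNC) of the 27 tested small subunit genes, with points for the limma estimate and bars for 1 SE (n = 2 per group). The estimates run from -1.29 (Rps10) to 1.61 (Rps13), 18 lie above 0, and none passed the test.

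The spread between replicates was wider in shGm26917. The shNC libraries lay within 1.5-fold of each other for 21 of the 27 members and the shGm26917 libraries for 6. They were apart by 2-fold or more for 2 members in shNC and for 13 in shGm26917. The SD of the log2 ratio of replicates over the members was 0.64 in shNC and 1.62 in shGm26917. The library shGm26917 replicate 1 held the highest of the 4 values for 12 members and the lowest for 13. Replicate 2 of shGm26917 held the highest for 12 and the lowest for 5.

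The remaining tested members lay between these. Rps2, Rps18, Rps21 and Rps24 had log2 changes of 0.29, 0.11, 0.21 and 0.0015, and Rps3, Rack1, Rps19, Rps3a1 and Rps26 lay between 0.082 and 0.23. Rps25, Rps27l, Rps4x and Rps14 had -0.15, -0.18, -0.15 and -0.34, and Rps23 had 0.53 ± 1.46. In Rps21, a protein at the back of the platform, TE was 0.713 and 0.388 in shNC against 0.288 and 1.28 in shGm26917. The groups overlapped in each of these genes.

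Rps6, Rps15a, Rps28 and Rps27rt were not tested because a library listed them at 0. Rps27rt was at 0 in all 4. The other 3 were at 0 only in shGm26917 replicate 1, where a value of 0 gives no fold. Rps6, the target of the S6 kinases, read 0.0255 and 0.0102 in shNC against 0.0166 in shGm26917 replicate 2, a value between those of shNC. Rps28, at the mRNA exit, read 0.0124 and 0.00917 against 0.0109, and Rps15a, in the body, read 0.0739 and 0.0554 against 0.0879.

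The ORF table gave footprints without division by RNA, as reads per ORF over a size factor of the library. It listed 12 ORFs of annotated coding sequence, 1 unannotated ORF and 2 upstream ORFs (uORFs) of these genes, and 17 of the 31 genes had none. These ORFs held 1002 and 584 reads in shNC against 168 and 1238 in shGm26917, or 0.0619%, 0.0557%, 0.106% and 0.0706% of the ORF reads of each library. Above 0 were 14, 12, 5 and 15 of them. Under 20 reads in every library were 8, for which counting error alone is large.

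Limma on log2(value + 1) called 0 of the 15 ORFs and 0% of all 4669 after adjustment, with 346 at an unadjusted p under 0.05 in the table and 0 among the 15. edgeR's quasi-likelihood test on whole reads called 0 of the 3927 ORFs that passed its filter, although 4 had an unadjusted p under 0.05. That filter kept 8 of the 15. DESeq2 called 0 of 4669. At the fold change of 1.5 and unadjusted p of 0.05, 0 of the 15 passed, against 7.37% of all ORFs. Adjusted p ran from 0.836 to 1.00 over the 15. Their median log2 change was -0.21, against -2.13 over all ORFs, most of which were listed at 0 in shGm26917 replicate 1.

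The annotated ORFs of Rps3a1 and Rps26 had the highest values. Rps3a1, of the body and platform genes, had 276 and 205 reads in shNC against 54 and 469 in shGm26917. Its ORF of 264 codons spans chr3:86137989-86142569 on the minus strand (mm10). Its size-adjusted values were 218.0, 238.9, 121.4 and 354.4, with replicates of shGm26917 on either side of shNC. Rps26 had 279.6 and 250.6 in shNC against 0 and 346.1 in shGm26917 over 115 codons. Per codon, Rps26 had 2.43, 2.18, 0 and 3.01 and Rps3a1 0.826, 0.905, 0.460 and 1.34, so Rps26 was the higher of the pair in 3 of the 4 libraries. Rps14 showed the same shape at a lower level, with 86.9 and 40.8 in shNC against 0 and 75.6 in shGm26917. The ORF of Rps15 was even across libraries, at 98.7 and 94.4 against 107.9 and 71.8.

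The fit without shGm26917 replicate 2 called 1982 of the 4669 ORFs, and 3 ORFs of small subunit genes were among them. Their log2 changes were -0.91 for Rps3a1 (limma adjusted p = 0.0159), -5.92 for Rps14 (0.0303) and -8.05 for Rps26 (0.000813). The ORFs of Rps14 and Rps26 were listed at 0 in shGm26917 replicate 1, the lone library of its group in that fit. Gene-level TE was above 0 there for both, and whether a listed 0 meant no footprints was not tested.

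Rps3, Rps4x and Rps23 had their highest size-adjusted value in shGm26917 replicate 1, at 98.9, 24.7 and 24.7. The ORF of Rps3 had 11 and 4 reads in shNC against 44 and 2 in shGm26917, those of Rps4x had 6, 8, 11 and 3, and those of Rps23 had 14, 7, 11 and 4. Of the 10 ORFs at 0 in that library, 8 belonged to genes whose TE was above 0 there and 2 to genes whose TE was 0 as well. Among the 8 was Rps10, with 14 and 7 reads in shNC against 0 and 20 in shGm26917, and Rps20, with 4 and 6 against 0 and 7. The 2 were Rps28, with 0 and 2 against 0 and 10, and Rps6, with 3 and 6 against 0 and 3. In shNC replicates 1 and 2, the 1 and 3 member ORFs listed at 0 all belonged to genes with a TE above 0. Rpsa, lowest in TE, had 3, 0, 0 and 2 reads.

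The uORFs lay ahead of Rps7 and Rps12. An uORF is a short reading frame upstream of the main one, and such frames are known to hold back scanning ribosomes. That of Rps7 spans 11 codons at chr12:28635872-28635907 on the minus strand. It had 75 and 0 reads in shNC against 0 and 51 in shGm26917. Each group thus held a library with over 50 reads and one listed at 0. That of Rps12, of 29 codons, had 1 and 8 reads against 0 and 7, and an unannotated ORF of Rps12 with 78 codons had 6 and 0 against 0 and 7. No annotated ORF of Rps7 or Rps12 was in the table.

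**Figure D4:**
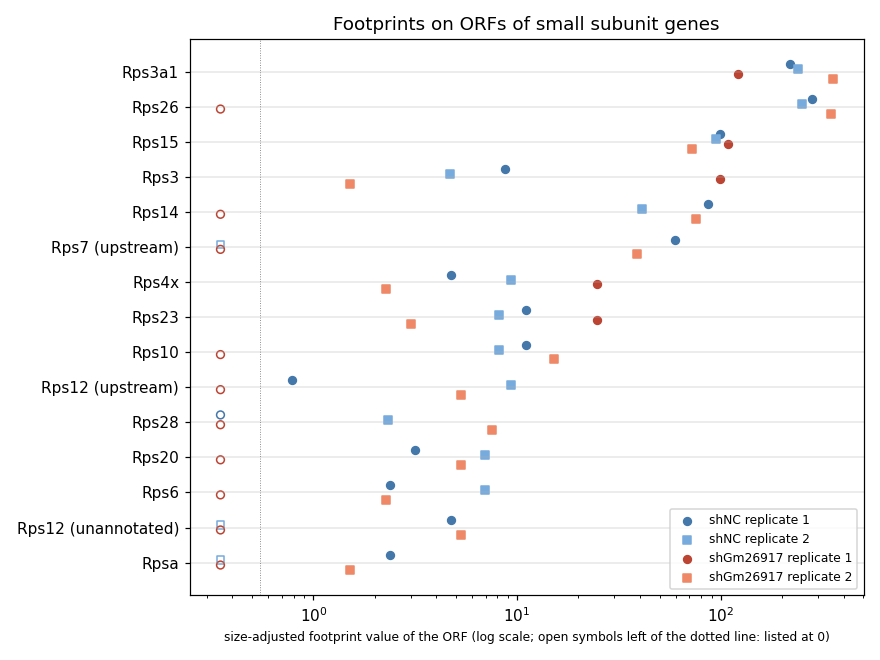
Size-adjusted footprint values (log axis) of the 15 ORFs of small subunit genes in each library, with open symbols left of the dotted line for values listed at 0. Rps3a1, in the top line, reads 121.4 to 354.4, and 10 ORFs are listed at 0 in shGm26917 replicate 1, among them that of Rps26, which reads 250.6 to 346.1 in the other libraries.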

How the data were processed

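Footprints of FGSCs were measured in 2 shNC and 2 shGm26917 libraries, grouped by the sample labels, which read NC and KO. The label KO was taken as the knockdown that the paper describes. The authors called ORFs with RiboCode and used mm10; no source used here states the aligner, the counter or their versions. The deposited ORF values are a signal, the read number of an ORF scaled by a library size factor. All non-zero values were multiples of the smallest value of their library, so whole reads were recovered: 100% of values were whole within 0.01 reads, 1 read being worth 0.790, 1.17, 2.25 and 0.756. In shGm26917 replicate 1 too few values were low for a separate check, so its read numbers are less sure. The deposited TE table holds a ratio per gene and library, the normalized Ribo-seq over the normalized RNA-seq value as formed by the authors. Both tables also hold fold changes, p-values, adjusted p-values or classes from the authors' comparisons, which were not used.

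TE was tested with limma 3.58.1 (R 4.3.3) on log2(TE), for genes above 0 in all 4 libraries, and ORFs on log2(value + 1), which understates the change of low values, for ORFs over 1 in at least 2 libraries. A call needed an adjusted p (Benjamini-Hochberg over the whole table) below 0.05. edgeR 4.0.16 and DESeq2 1.42.0 were run on the whole reads. Fits were tested on simulated data, with recovery required only for TE at 0.1 of the spread of the real groups. Recovery at the full spread is not given here, so a lack of calls does not show a lack of change. Alternatives were centring, quantile normalization, array weights, zeros kept with 0.001 added, a pseudocount of 0.1 for ORFs, other filters, a replicate block and each library left out. Of the 35 genes that match the rule, 4 are not reported here, and counts and medians leave them out of the member list. Every other member is named. Values per library are given for the 5 largest changes each way, the 5 highest and 5 lowest mean TE, paralogues, ubiquitin fusions, Rack1, Rps6, Rpsa, members with an ORF, and members whose groups did not overlap. Other genes named with values were chosen after their values were seen. The members and lists were chosen with earlier results of these data known. Start sequences are from RefSeq (GRCm38.p6). Rps14, Rps20, Rps27a and Rps29 had no entry in the promoter table used.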

Additional observations from a re-analysis of the deposited data

How the results depend on the processing

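No small subunit gene or ORF was called under median centring, quantile normalization, array weights, kept zeros, a pseudocount of 0.1 or no filter. None was called with only ORFs above 0 in all libraries (5 of the 15, median log2 change -0.05). Neither edgeR, which tested 8 of the 15, nor DESeq2 called any. Leaving out a library gave 0 to 583 called genes and 0 to 1 called members in TE, and 0 to 1982 called ORFs and 0 to 3 called member ORFs. The upper ends, 583 and 1982, came without shGm26917 replicate 2, where the lone library is assumed to vary like the shNC pair. The member medians ranged from 0.024 to 0.33 (TE) and from -1.26 to 0.39 (ORFs) with a library left out. The log2 change of Rps24 turned to -0.0075 under median centring and that of Rps23 to -0.090 under quantile normalization.

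With a library left out, log2 changes ranged from -0.76 to 0.98 for Rps18, -1.98 to 1.31 for Rps14, -0.87 to 1.28 for Rps21, -0.63 to 0.33 for Rps25, -0.023 to 2.37 for Rpsa, -0.53 to 1.00 for Rps26, -0.35 to 0.35 for Rps24 and -0.68 to 0.38 for Rps4x. They ranged from -0.090 to 0.25 for Rps19, -0.29 to 3.51 for Rps13, -0.50 to 0.14 for Rps27l, -0.81 to 0.10 for Rps12, -1.08 to 0.053 for Rps15, -1.98 to 0.64 for Rps7, -0.82 to 1.89 for Rps23, -0.81 to 1.40 for Rps2, -0.30 to 0.75 for Rps3a1 and -0.15 to 0.56 for Rps3.

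Replicate numbers are shared between groups. Deviations of same-numbered libraries correlated at -0.04 (TE) and -0.14 (the 296 ORFs above 0 in all libraries). With 2 libraries per group, this cannot show whether same-numbered libraries shared a culture or a batch. The replicate block called 0 genes and 0 ORFs and left the member medians at 0.21 and -0.21, and a crossed pairing, added after the data were seen, called 0 ORFs. The 2 libraries per group limit the precision of every change.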

Other observations

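Other genes with Rps in their symbol are not ribosomal proteins or are copies, and their values were looked up after the member values were seen. The kinases of the Rps6k family phosphorylate Rps6 and other substrates downstream of mTOR and ERK. Rps6kb1, the S6 kinase, had a TE of 0.488 and 0.587 in shNC against 0.326 and 0.511 in shGm26917, and Rps6ka1 read 0.991 and 1.28 against 1.52 and 1.51. Both had a limma adjusted p of 0.965, and the levels of both lay well above that of Rps6. Rps19bp1, a nucleolar binding partner of Rps19, had a TE of 84.7 and 92.2 in shNC against 221.1 and 19.0 in shGm26917, so the replicates of shGm26917 lay on either side of shNC.

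The TE table also listed 85 pseudogenes with Rps symbols, among them Rps4l, Rps3a2 and Rps3a3. TE was above 0 in at least 1 library for 32 of them and in all 4 for 3, and 53 were at 0 or had no ratio throughout. Rps16-ps2 read 0.0203 and 0.0185 in shNC against 0.0283 and 0.00542 in shGm26917, below Rps16 in every library. Rps10-ps1 read 0.0945 and 0.248 against 0.0600 and 0.158, below Rps10 in every library. Rpsa-ps10 went the other way, at 0.168 and 0.274 against 1.71 and 0.386, above Rpsa in every library, and its log2 change of 1.92 ± 0.81 (SE) had a limma adjusted p of 0.965. Whether reads of gene and copy were told apart was not tested.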
